A study of Mus musculus with 5 samples.

Results

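Glycolysis and hypoxia response genes were examined in neutrophils of naive and tumour-bearing mice: 32 of the 32285 genes in the matrices, chosen by symbol. A list of 19 holds the glucose transporters Slc2a1 and Slc2a3, the enzymes from hexokinase to lactate dehydrogenase, the regulators Pfkfb3 and Pfkfb4 and the lactate exporter Slc16a3. A list of 13 holds Hif1a itself and genes known as targets or regulators of the hypoxia-inducible factor (HIF). The neutrophils were sorted from bone marrow (BM), peripheral blood (PB) and lung of wild-type female C57BL/6J mice without tumours (naive) or bearing AT3 or AT3-gcsf tumours. AT3 is a mouse mammary carcinoma line. The labels do not say how AT3-gcsf was made; its name holds that of the neutrophil growth factor G-CSF. The labels give no age, no number of mice and no time after tumour implantation. Each condition was 1 lane of a droplet single-cell assay, so condition and lane cannot be told apart, no spread between mice was measured and no test was made. The 3 tissues of a lane carried hashtag antibodies. No label ties a hashtag to a tissue, so the populations are named by library and tag only and are not replicates. Sets of 3 values follow the order MHTO3, MHTO4, MHTO5 for naive and AT3-gcsf cells and MHTO7, MHTO8, MHTO10 for AT3 cells. With whole populations summed, a larger share of cells expressing a gene and more transcripts per cell cannot be told apart.

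Glycolysis splits glucose into pyruvate, and lactate dehydrogenase and a monocarboxylate exporter then dispose of the product as lactate. Neutrophils hold few mitochondria and draw most of their energy from this route. When oxygen falls, prolyl hydroxylases no longer mark the HIF alpha subunit for destruction, and HIF binds short promoter elements of glycolytic genes and of genes for mitophagy, collagen maturation and its own feedback.

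The compared cells numbered 7003, 7419 and 9952 in the naive, AT3 and AT3-gcsf libraries, with 26529565, 50068554 and 88641973 unique molecular identifiers (UMIs, each 1 captured transcript) and a median of 2775, 4819 and 7672.5 UMIs per cell. Libraries shared 20 to 44 cell barcodes pairwise. In the 9 populations all 18 neutrophil markers were detected and summed to 17.8% to 48.6% of UMIs. Cells were kept only with at least 5% of UMIs from these markers, so the sums are partly set by that choice. The naive populations MHTO3 and MHTO5 were the lowest of the 9. Of marker lists of other cells, macrophage and monocyte genes summed to 232 to 830.5 CPM (UMIs per 1e6 UMIs) and erythroid genes to 0.139 to 1104. Genes of dendritic cells and MHC class II summed to 586 CPM in naive MHTO5 and to at most 174 elsewhere. In the naive, AT3 and AT3-gcsf libraries B cell genes summed to 125, 29.3 and 10.3 CPM. T and NK genes summed to 29.0, 6.15 and 2.73, and epithelial genes to 163, 103 and 67.3. Basophil, mast and eosinophil genes went the other way, at 11.3, 16.4 and 24.4. Endothelial and stromal genes stood at 8.71, 10.3 and 10.2. The early precursor list, with Elane and Mpo, summed to 13.2 to 183 CPM. The part of these cells in the results below was not tested.

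Glycolytic transcripts together made up a larger share of the transcriptome in AT3 than in naive neutrophils and the largest in AT3-gcsf neutrophils. The 19 genes summed to 5688, 7117 and 9199 CPM in the naive, AT3 and AT3-gcsf libraries. Gapdh alone held 1124, 1962 and 2987 CPM of these sums, so they do not describe the typical member. The sums were taken on CPM only, without the other scalings given below. By population they summed to 5432, 5876 and 5594 CPM in the naive populations, to 7589, 6689 and 6943 in the AT3 populations, and to 9348, 9952 and 8456 in the AT3-gcsf populations. The ranges of the 3 libraries did not overlap. The 13 hypoxia genes summed to 629.7, 605 and 731 CPM, and there the populations overlapped: 758, 490.5 and 760 in naive, 486, 667 and 735 in AT3 and 684, 808 and 693 in AT3-gcsf.

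**Figure D1:**
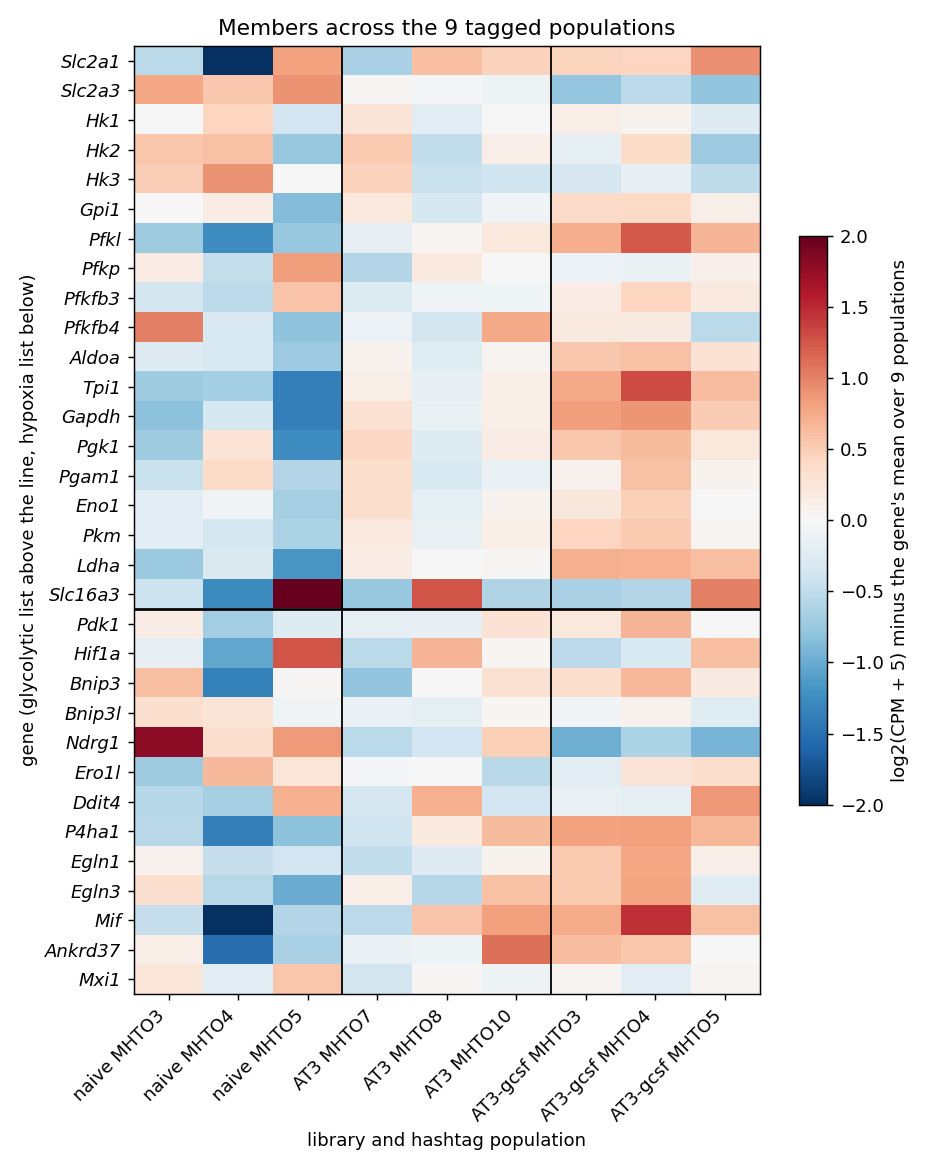
Level of the 32 members in each of the 9 tagged populations, as log2(CPM + 5) less the gene's mean over the 9 populations (colour), with libraries separated by vertical lines. The AT3-gcsf columns are mostly red for the enzymes from Aldoa to Ldha and blue for Slc2a3, and Slc16a3 is red in 1 population of each library.

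Gene by gene, a member was compared between libraries when it reached 20 CPM in the higher of them, as the log2 ratio after adding 5 CPM to both. In AT3 against naive cells all 19 glycolytic members were measured, with a median log2 ratio of 0.073, beside -0.34 over all 3926 genes measured. None was 2-fold higher or lower, where 2.14% of all genes were higher and 6.37% lower by that rule. On CPM without the added 5, Pfkl exceeded 2-fold, at 21.3 against 8.56, as did Ankrd37 of the hypoxia list, at 20.2 against 8.37. In 6 of the 19 every AT3 population lay above every naive population (all genes 3.08%), and in 1, Slc2a3, every one lay below (all genes 12.4%). Such calls, here and below, order the values alone and do not weigh counting error. Of the hypoxia list 9 members were measured, with a median of 0.022; Mif was 2-fold higher, Ndrg1 2-fold lower, and all 9 had overlapping populations. That median took either sign with the choice of cells and populations.

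AT3-gcsf cells differed more from naive ones. The glycolytic median was 0.39, against -0.38 over all 4091 genes measured, with 5 of 19 members at least 2-fold higher (all genes 5.40%) and 1 lower (all genes 21.2%). Every AT3-gcsf population lay above every naive one in 7 of the 19 (all genes 11.0%) and below in 2 (all genes 29.8%). The 11 measured hypoxia members had a median of 0.65, with 3 at least 2-fold higher and 1 lower, and with 3 above and 1 below in every population. Between the tumour lines, AT3-gcsf against AT3, the medians were 0.26 for the glycolytic and 0.32 for the 10 measured hypoxia genes, beside -0.026 over 3534 genes. No measured member of either list was 2-fold higher or lower there (all genes 2.43% and 2.57%), while 6 glycolytic and 2 hypoxia members were higher in every population (all genes 13.5%) and 1 glycolytic member lower (all genes 9.71%). Without the 5 CPM added, Pfkl exceeded 2-fold between the tumour lines too, at 44.3 against 21.3 CPM. The comparisons share libraries, so they are not independent of each other.

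**Figure D2:**
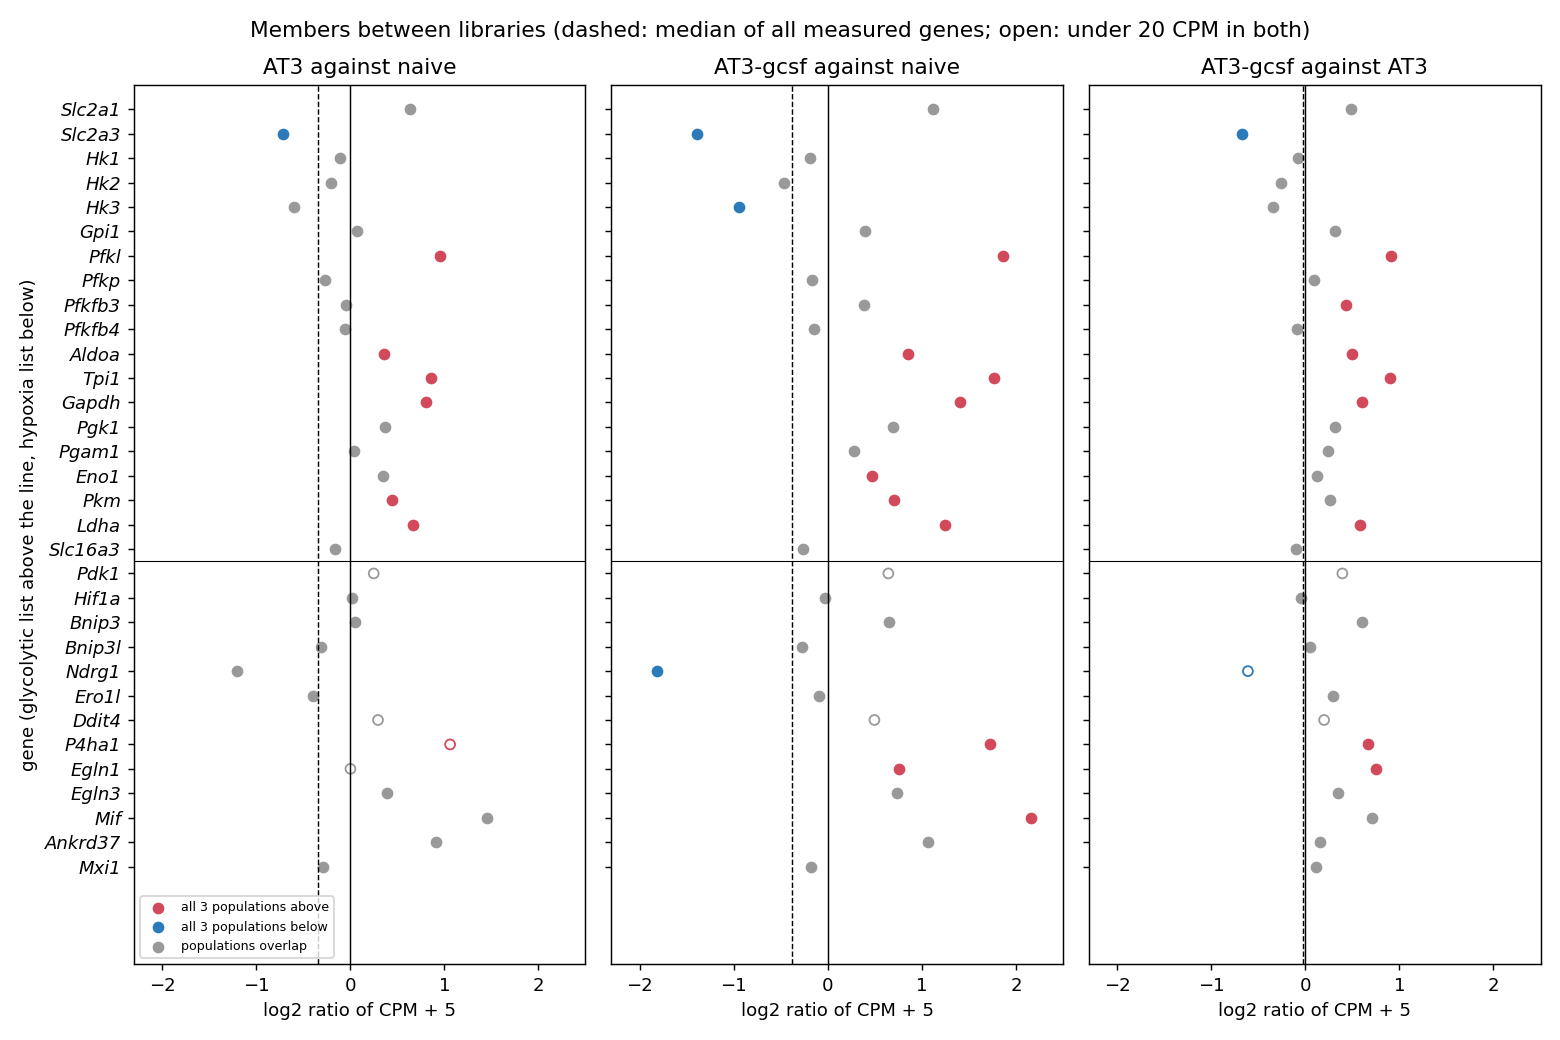
Log2 ratio of each member between libraries (x axis, on CPM + 5), coloured by whether all 3 populations of the first library lie above or below all 3 of the second, with the median of all measured genes dashed. Pfkl, Aldoa, Tpi1, Gapdh and Ldha are red in all 3 panels and Slc2a3 is blue in all 3.

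Scaling moved these values together. S100a8 and S100a9, the abundant calcium-binding proteins of neutrophils, each took 12.1% to 16.1% of the UMIs of a library. With TMM factors, which scale to the bulk of the genes in place of the total, the median of all genes was shifted up by 0.48 on the log2 scale for AT3 against naive and by 0.60 for AT3-gcsf against naive. The glycolytic medians then stood at 0.56 and 0.96. Members above 0 went from 11 to 17 of 19 glycolytic and from 5 to 8 of 9 hypoxia genes in AT3, and from 12 to 17 of 19 and 6 to 10 of 11 in AT3-gcsf against naive cells. Over all genes that share went from 20.1% to 62.5% and from 30.2% to 60.6%. With totals that leave out the 20 most abundant genes, 2 glycolytic members, Pfkl and Tpi1, lay higher in every AT3 than naive population, where 5.49% of all genes did. Gapdh, Aldoa, Ldha and Pkm then overlapped there. Pfkl, Tpi1 and P4ha1 kept the separation of all 3 libraries under CPM, TMM and these totals. P4ha1 was under 20 CPM in both AT3 and naive cells on CPM and TMM, so that comparison was not among the measured ones. For P4ha1, which was low, the nearest populations of different libraries lay within counting error of each other. On CPM some members lay slightly below 0 and under TMM above it: Hk1, Hk2, Pfkp, Pfkfb4, Slc16a3, Bnip3l, Ero1l and Mxi1 in both comparisons with naive cells. Pfkfb3 crossed 0 in AT3 against naive only, and Hif1a in both comparisons of AT3-gcsf cells. Relative to the median of all genes, Hk1, Pfkp, Pfkfb4 and Slc16a3 stood at 0.19, 0.21, 0.23 and 0.12 in AT3-gcsf against naive cells. Hk2 stood below that median, at -0.085.

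Because HIF acts through a short core, the promoter letters of 7 members, chosen from those described below, are printed here from RefSeq (GRCm38.p6). Each is the 150 bases before a RefSeq start, read 5′ to 3′ on the strand of the gene. In GENCODE, 14 of the bases of Slc16a3 and 0 of the others lie in an exon. The stretches of Ldha, Slc16a3, Pfkl, Gapdh and Hif1a nonetheless lie inside the GENCODE gene, whose record begins upstream of the RefSeq start. Capitals mark the core ACGTG or GCGTG on either strand, so that CACGT and CACGC are the same letters on the other strand. ACGTG read on both strands at once is CACGTG, the E-box, which other factors also bind. Ldha has 5 cores counted by strand, Slc16a3 a pair close to the start, Pfkl 1, and Mif none in this stretch, though its wider window holds 1 past the start. A second RefSeq start of Ldha (chr7:46846932-46847081, not printed) has 1 core, GCGTG. The stretch of Tpi1, also described below but not printed, has 0 cores.
Ldha (chr7:46845654-46845803, plus strand): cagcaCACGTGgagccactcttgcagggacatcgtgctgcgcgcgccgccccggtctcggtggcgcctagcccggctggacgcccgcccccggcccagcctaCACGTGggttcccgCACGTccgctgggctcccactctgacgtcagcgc
Slc16a3 (chr11:120948917-120949066, plus strand): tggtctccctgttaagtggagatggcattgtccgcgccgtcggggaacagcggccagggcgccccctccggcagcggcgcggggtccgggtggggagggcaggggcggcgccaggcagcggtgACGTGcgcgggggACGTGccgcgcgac
Pfkl (chr10:78009808-78009957, minus strand): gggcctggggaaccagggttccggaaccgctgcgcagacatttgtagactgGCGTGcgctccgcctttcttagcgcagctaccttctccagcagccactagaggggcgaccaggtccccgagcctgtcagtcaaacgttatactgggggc
Gapdh (chr6:125165774-125165923, minus strand): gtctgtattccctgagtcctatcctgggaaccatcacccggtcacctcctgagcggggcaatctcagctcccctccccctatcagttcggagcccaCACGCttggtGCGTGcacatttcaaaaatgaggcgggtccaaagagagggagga
Hif1a (chr12:73907717-73907866, plus strand): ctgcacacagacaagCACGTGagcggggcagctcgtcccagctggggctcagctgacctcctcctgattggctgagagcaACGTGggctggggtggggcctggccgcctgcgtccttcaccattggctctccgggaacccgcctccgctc
P4ha1 (chr10:59323146-59323295, plus strand): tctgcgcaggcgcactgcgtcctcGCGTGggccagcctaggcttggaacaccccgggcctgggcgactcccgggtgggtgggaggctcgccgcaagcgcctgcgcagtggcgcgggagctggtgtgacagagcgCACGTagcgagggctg
Mif (chr10:75860278-75860427, minus strand): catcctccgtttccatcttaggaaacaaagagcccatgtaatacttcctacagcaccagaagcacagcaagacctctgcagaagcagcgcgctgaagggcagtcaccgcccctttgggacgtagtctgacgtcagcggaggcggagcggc
Of the 32 members 29 were matched in the promoter table (Ero1l under its newer symbol Ero1a); Slc2a3, Bnip3l and Ndrg1 were not. In windows from 250 bases before to 50 after a start, 27 of the 29 held either core in at least 1 window, all but Gpi1 and Tpi1 (93.1%), where 46.7% of 27025 genes did. ACGTG alone was in 22 (75.9%), against 21.8% of all genes. Member windows were also richer in G and C, 63.5% against 53.8%, and the shares were not matched for that. The 29 members also had 40 windows, against 32851 for the 27025 genes. The hypoxia list was chosen as known targets or regulators of HIF, so the shares are no test of the members. A core is a run of letters, not a shown binding site.

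The mix of glucose transporters differed between libraries, with less Slc2a3 and a larger share of Slc2a1 in AT3-gcsf cells. Slc2a3, the high-affinity transporter GLUT3 (chromosome 6, 122727809 to 122801640 in GENCODE on GRCm38, as for the genes below), was at 382, 323 and 415 CPM in the naive populations. In the AT3 populations it was at 225, 218 and 206 CPM, and in the AT3-gcsf populations at 127, 153 and 126. All naive values were above all AT3 values, and these above all AT3-gcsf values. The log2 ratios were -0.72 for AT3 and -1.39 for AT3-gcsf against naive cells. Under TMM they were -0.23, with overlapping populations, and -0.82, still lower in every population but no longer 2-fold.

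Slc2a1, the basal transporter GLUT1 (chromosome 4, 119108711 to 119137983), was at 52.0, 10.2 and 141 CPM in the naive populations, a spread of more than 10-fold with MHTO4 lowest. It was at 48.3, 121 and 109 CPM in the AT3 and 108, 107 and 151 in the AT3-gcsf populations. Naive MHTO5 overlapped the tumour-bearing values, and AT3 MHTO7 lay below naive MHTO3. The whole libraries stood at 55.0 CPM (52.2 to 57.9), 88.0 CPM (85.4 to 90.6) and 125 CPM (123 to 127), where brackets give exact Poisson 95% limits that cover counting error only. The log2 ratio of AT3-gcsf against naive, 1.12, rested on naive MHTO4: without that population it was 0.36, and without naive MHTO5 2.13. With the 3 populations weighted alike it was 0.81, and without AT3-gcsf MHTO5 0.91.

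As a share of the UMIs of both transporters, which no scaling of the libraries can move, Slc2a1 made up 13.2% (12.6 to 13.8), 28.7% (28.0 to 29.5) and 48.0% (47.3 to 48.6) in naive, AT3 and AT3-gcsf cells, with Clopper-Pearson 95% limits. By population the share ran from 3.05% to 25.3% in naive, from 17.7% to 35.7% in AT3 and from 41.2% to 54.6% in AT3-gcsf cells. Every AT3-gcsf population was thus above every AT3 and naive population, while AT3 and naive overlapped. AT3-gcsf MHTO5 was the one population in which Slc2a1 held the greater part of the 2.

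Of the hexokinases, which trap glucose in the cell, Hk3 was lower in AT3-gcsf than in naive populations on CPM, and Hk1 and Hk2 overlapped between all libraries. Hk3, the hexokinase with most UMIs here, was at 139, 186 and 98.6 CPM in the naive populations, 136, 70.8 and 72.9 in the AT3 populations and 76.5, 87.1 and 67.4 in the AT3-gcsf populations. All AT3-gcsf values lay below all naive values (log2 ratio -0.94; under TMM -0.39, with overlap). Hk2, the inducible form, ranged over 19.8 to 58.2, 24.9 to 55.1 and 20.3 to 48.9 CPM in the 3 libraries, and in naive cells MHTO5 was at least 2-fold below both others (all genes 3.63%). Hk1 ran from 17.8 CPM in naive MHTO5 to 35.2 in naive MHTO4, with the other 7 populations between. Hk3 held 66.6%, 59.8% and 57.2% of the hexokinase UMIs of the libraries. The next enzyme, glucose phosphate isomerase (Gpi1), was at 401 to 814 CPM in naive, 589 to 856 in AT3 and 802 to 978 in AT3-gcsf populations, the lowest in naive MHTO5.

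Phosphofructokinase commits sugar to glycolysis, and its liver-type subunit Pfkl (chromosome 10, 77986947 to 78010083) showed a step at each condition. It was at 11.1, 6.10 and 10.6 CPM in the naive populations. It was at 18.6, 22.0 and 25.6 in the AT3 populations, and at 38.4, 56.5 and 37.2 in the AT3-gcsf populations. The 3 libraries did not overlap, under any of the 3 scalings. Log2 ratios were 0.96 for AT3 against naive, 0.91 for AT3-gcsf against AT3 and 1.86 for AT3-gcsf against naive. The 5 CPM added lower these ratios. With library values of 8.56, 21.3 and 44.3 CPM, each change exceeded 2-fold before that addition. The platelet-type subunit Pfkp showed no such step, at 19.7 to 56.7, 17.8 to 34.5 and 26.4 to 31.8 CPM. Pfkl accordingly made up 20.6% (18.2 to 23.1) of phosphofructokinase UMIs in naive, 44.5% (42.5 to 46.5) in AT3 and 60.5% (59.3 to 61.7) in AT3-gcsf cells. Its share was 15.7% to 24.9%, 38.9% to 51.0% and 53.9% to 67.9% over the populations, without overlap. The muscle type Pfkm held at most 0.352%.

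Pfkfb3 and Pfkfb4 make and remove the activator of phosphofructokinase. Pfkfb4 was at 209, 81.5 and 55.7 CPM in the naive populations, 92.7, 77.6 and 174 in the AT3 populations and 117, 116 and 67.9 in the AT3-gcsf populations. Naive MHTO3 was at least 2-fold above both other naive populations (all genes 4.56%), and AT3 MHTO10 was the highest of its library. Pfkfb3 was at 21.1, 18.5 and 45.4 CPM in naive, 22.9, 26.9 and 26.8 CPM in AT3 and 32.3, 40.4 and 33.8 CPM in AT3-gcsf populations, highest in naive MHTO5. Every AT3-gcsf population was above every AT3 one in Pfkfb3 (log2 ratio 0.43). Its share of the UMIs of the 2 genes ran from 9.15% in naive MHTO3 to 44.9% in naive MHTO5.

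**Figure D3:**
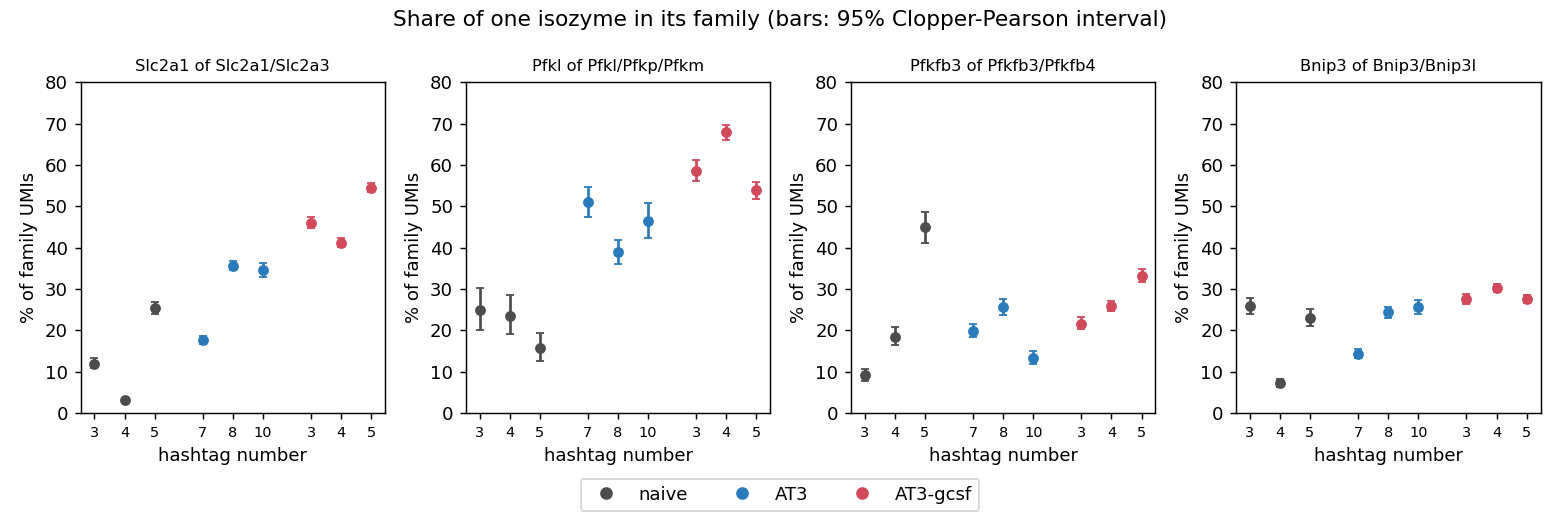
Share of UMIs (y axis, percent) taken by 1 member of a family in each population (x axis, hashtag number), with exact 95% Clopper-Pearson intervals. Pfkl lies at 15.7% to 24.9% in naive, 38.9% to 51.0% in AT3 and 53.9% to 67.9% in AT3-gcsf populations, while Pfkfb3 overlaps between libraries and Bnip3 overlaps between naive and AT3 only.

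Of the 8 enzymes from aldolase to lactate dehydrogenase, Aldoa, Tpi1, Gapdh, Pkm and Ldha were higher in every AT3 and AT3-gcsf population than in any naive one on CPM. Gapdh, which makes the first high-energy intermediate (chromosome 6, 125161715 to 125166467) and has most UMIs of the members in each library, was at 1016, 1415 and 694 CPM in the naive populations. It was at 2237, 1651 and 1979 CPM in the AT3 populations and at 3207, 3324 and 2562 in the AT3-gcsf populations. No value of one library reached into the next on CPM and TMM. With totals without the 20 most abundant genes AT3 overlapped both other libraries. The log2 ratios were 0.80 for AT3 and 1.41 for AT3-gcsf against naive, and 0.61 between the tumour lines. Tpi1, triose phosphate isomerase (chromosome 6, 124810586 to 124814296), was at 45.8, 47.2 and 27.5 CPM in naive, 86.3, 69.4 and 86.4 in AT3 and 136, 201 and 123 in AT3-gcsf populations, without overlap under any scaling. Its log2 ratios were 0.86, 1.76 and 0.90 in the same order.

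Ldha, which turns pyruvate into lactate (chromosome 7, 46841475 to 46855627), was at 257, 356 and 190.1 CPM in the naive populations, 483, 437 and 442 in the AT3 populations and 711, 709 and 657 in the AT3-gcsf populations. On CPM its libraries did not overlap, and without the 20 most abundant genes AT3 overlapped naive. Its 3 values lay close together within AT3 and within AT3-gcsf. The log2 ratios were 0.66 for AT3 and 1.25 for AT3-gcsf against naive. The heart-type subunit Ldhb held at most 0.829% of the UMIs of the 2 genes in any population. Aldolase A (Aldoa) was at 653, 629 and 469 CPM in naive, 823, 663 and 813 in AT3 and 1136, 1175 and 953 in AT3-gcsf populations, without overlap on CPM and with log2 ratios of 0.36 and 0.85 against naive. Pyruvate kinase (Pkm) was at 809, 729 and 604 CPM in naive, 1078, 841 and 1031 in AT3 and 1265, 1342 and 975 in AT3-gcsf populations. Both tumour-bearing libraries were above all naive values in Pkm on CPM, with ratios of 0.45 and 0.71, and overlapped each other.

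Pgk1, Pgam1 and Eno1 had overlapping populations in AT3 against naive. Phosphoglycerate kinase (Pgk1) was at 142, 285 and 97.1 CPM in the naive populations, against 195 to 317 in AT3 and 274 to 370 in AT3-gcsf populations. Naive MHTO4 overlapped the others, and the ratio of AT3-gcsf against naive was 0.69. Phosphoglycerate mutase (Pgam1) had overlapping populations throughout, at 149.6 to 299, 183 to 291 and 239 to 342 CPM. Enolase (Eno1) was at 248 to 378, 347 to 506 and 395 to 552 CPM, with every AT3-gcsf population above every naive one on CPM (log2 ratio 0.47). Many of these enzymes have processed pseudogenes, and the sources used here do not say how reads shared with such copies were counted.

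**Figure D4:**
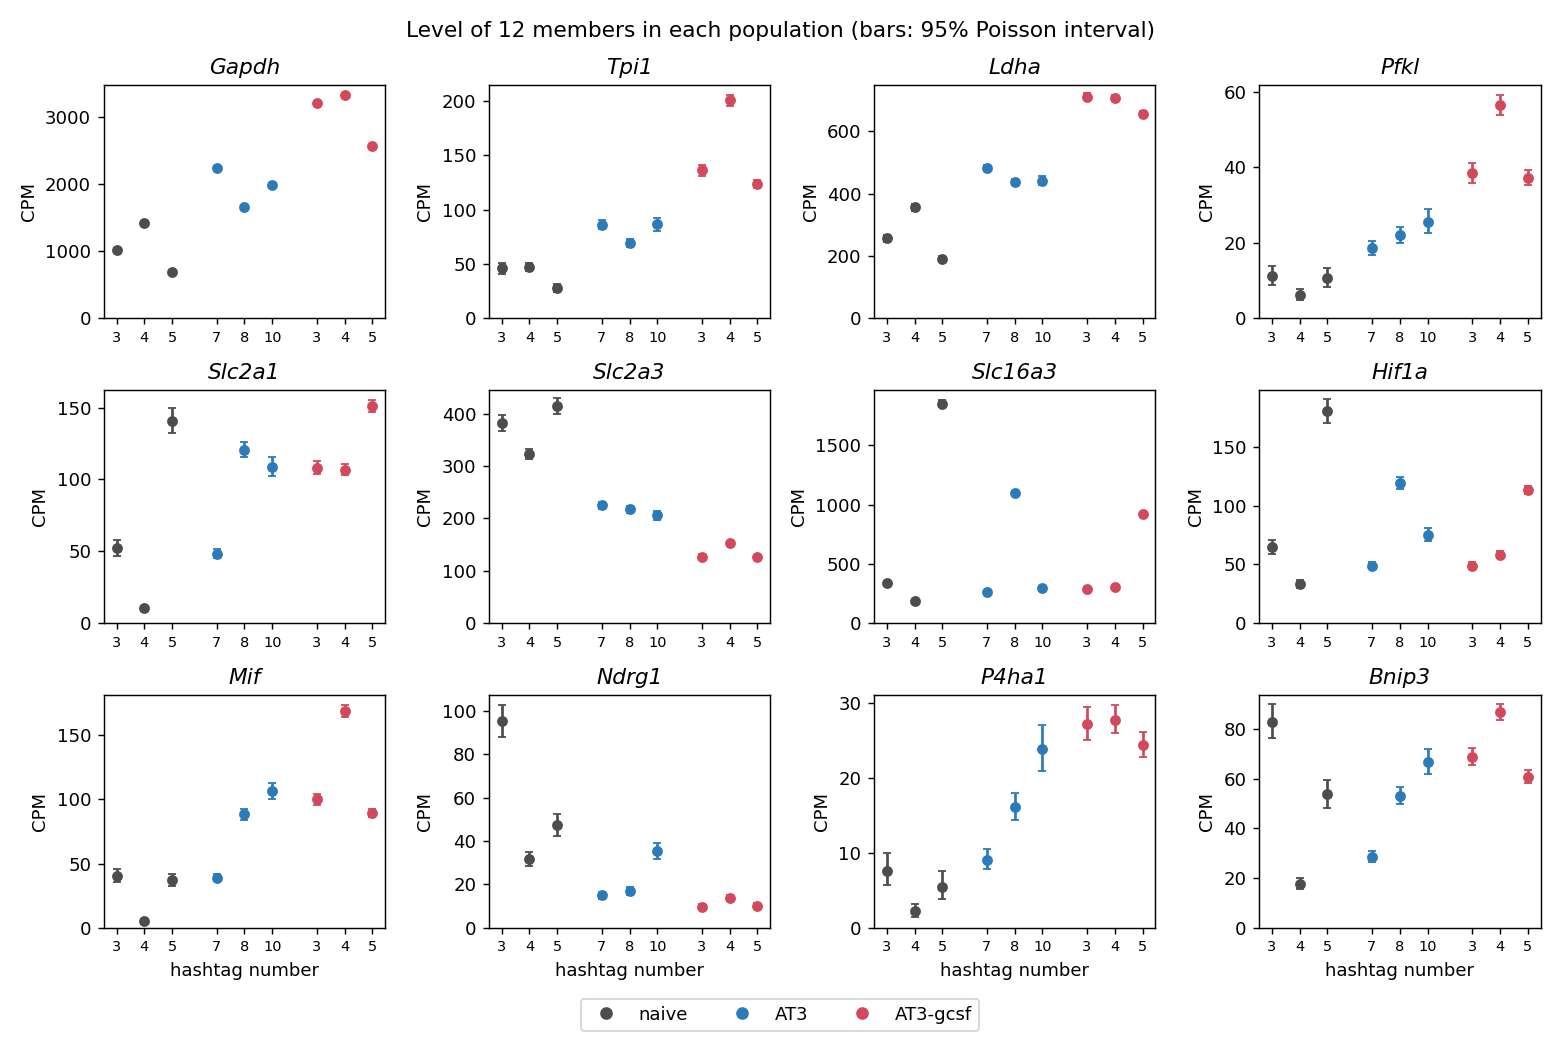
CPM of 12 members in each population (x axis, hashtag number; colour, library; bars, exact 95% Poisson intervals). Gapdh, Tpi1, Ldha and Pfkl stand higher from naive to AT3 to AT3-gcsf and Slc2a3 lower without overlap, while Slc16a3 and Hif1a are highest in naive 5, AT3 8 and AT3-gcsf 5.

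The lactate exporter Slc16a3 (MCT4; chromosome 11, 120948480 to 120960868) separated populations, not libraries. It was at 335, 185 and 1853 CPM in the naive populations, 266, 1097 and 299 in the AT3 populations and 289, 300.2 and 921 in the AT3-gcsf populations. In each library 1 population was more than 2-fold above both others: naive MHTO5 (all genes 8.84%), AT3 MHTO8 (all genes 6.13%) and AT3-gcsf MHTO5 (all genes 5.33%). These were the populations with the highest sums of a list of 8 chemokine and NF-kB response genes, which includes Cxcl2 and Il1b: 27115, 24668 and 16296 CPM, against at most 4039 in the other 6. The library values of Slc16a3 differed little, at 659, 589 and 549 CPM. Of its 3 high values, that of naive MHTO5 was the highest.

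Hif1a, the oxygen-regulated HIF subunit (chromosome 12, 73901375 to 73947530), followed the same order within each library. It was at 64.5, 33.0 and 181 CPM in the naive populations, 48.8, 119 and 75.4 in the AT3 populations and 49.0, 58.4 and 113 in the AT3-gcsf populations. Naive MHTO5 was at least 2-fold above both others, as were Slc2a1 and Slc16a3 there. The library values of Hif1a were almost alike, at 79.7, 81.0 and 78.3 CPM. HIF is regulated mainly at the protein, which was not measured.

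Most glycolytic members were at their lowest in the same 3 populations, as were many other genes. The lowest of the 3 populations of a library was naive MHTO5 for 13 of 18 measured glycolytic members (all genes 42.7%), AT3 MHTO8 for 13 of 19 (all genes 32.7%) and AT3-gcsf MHTO5 for 15 of 19 (all genes 63.2%). Gapdh, for one, was at 694, 1651 and 2562 CPM there. The highest values of naive and AT3 cells lay in naive MHTO4 for 10 (all genes 17.2%) and AT3 MHTO7 for 12 members (all genes 17.4%), the populations with the highest sums of 8 secondary granule genes (71891 and 53855 CPM, at most 19078 elsewhere). In AT3-gcsf cells MHTO4 was highest for 13 of 19 (all genes 43.2%). CPM are shares of a total, so chemokine or granule transcripts move all other genes of a population with them; their part in this order was not tested.

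Targets of HIF in the hypoxia list did not move as one. Mif, a secreted inflammatory cytokine (chromosome 10, 75859353 to 75860240), was at 40.7, 5.56 and 37.2 CPM in the naive populations, 39.1, 88.3 and 106 in the AT3 populations and 100.2, 169 and 89.4 in the AT3-gcsf populations. All AT3-gcsf values were above all naive ones, and AT3 MHTO7 lay within the naive range. Naive MHTO4 was at least 2-fold below both others (all genes 10.6%), as was AT3 MHTO7 (all genes 6.97%). The log2 ratios were 1.45 for AT3 and 2.16 for AT3-gcsf against naive. They were 0.80 and 1.51 without naive MHTO4, and 0.84 and 1.55 with the cells under the neutrophil marker minimum kept, so the 2-fold call of AT3 was lost under both. P4ha1, a collagen prolyl hydroxylase (chromosome 10, 59323296 to 59373304), was low but ordered: 7.61, 2.19 and 5.49 CPM in naive, 9.09, 16.1 and 23.8 in AT3 and 27.2, 27.8 and 24.4 in AT3-gcsf populations. Its libraries did not overlap under any scaling, and AT3-gcsf stood at a log2 ratio of 1.73 against naive. Against AT3, where it was under 20 CPM as in naive cells, the ratio of AT3-gcsf was 0.67.

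Ankrd37, a small ankyrin-repeat protein, was at 18.7, 2.58 and 8.82 CPM in naive, 14.5, 15.1 and 41.6 in AT3 and 28.1, 26.7 and 16.7 in AT3-gcsf populations. AT3 MHTO10 was at least 2-fold above both others of its library (all genes 2.77%), and the libraries overlapped. The log2 ratio of AT3-gcsf against naive, 1.07, was 0.58 without naive MHTO4 and between 0.94 and 0.98 with equal weights or without AT3-gcsf MHTO3 or MHTO4. The oxygen sensors Egln1 and Egln3 were low throughout. Egln1 was at 14.1 to 22.8, 13.7 to 22.4 and 23.7 to 39.9 CPM, with every AT3-gcsf population above all 6 others (ratio 0.76 against naive). Egln3 was at 27.7, 12.8 and 8.24 CPM in naive, 23.9, 12.7 and 34.3 in AT3 and 32.9, 40.1 and 17.1 in AT3-gcsf populations, with overlap.

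Ndrg1, a stress-responsive protein widely used as a hypoxia marker (chromosome 15, 66929318 to 66969640), went the other way. It was at 95.3, 31.6 and 47.3 CPM in the naive populations, 15.0, 17.1 and 35.3 in the AT3 populations and 9.65, 13.7 and 10.2 in the AT3-gcsf populations. Every AT3-gcsf value was below all naive and all AT3 values, and AT3 MHTO10 overlapped the naive range. Log2 ratios against naive were -1.20 for AT3 and -1.81 for AT3-gcsf. Without naive MHTO3, the highest population, they were -0.76 and -1.37. Under TMM the ratio of AT3 was -0.77, no longer 2-fold, and that of AT3-gcsf -1.33.

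The mitophagy receptors Bnip3 and Bnip3l differed in how much they varied. Bnip3 was at 82.8, 17.7 and 53.6 CPM in the naive populations, 28.5, 53.2 and 66.8 in AT3 and 68.9, 86.7 and 60.8 in AT3-gcsf populations. Naive MHTO4 was at least 2-fold below both others of its library. Bnip3l, the hypoxia member with most UMIs, stayed within 179.8 to 238, 165 to 195 and 159.7 to 200.1 CPM, the narrowest span of the measured members at 1.49-fold over the 9 populations. Mxi1, an antagonist of MYC, was at 99.1 to 174, 89.7 to 118 and 98.9 to 121 CPM, and Ero1l, an oxidase of the endoplasmic reticulum, at 13.3 to 42.1, 15.3 to 25.2 and 20.9 to 33.0, both with overlap. Pdk1, a kinase that inhibits pyruvate dehydrogenase, and Ddit4, a brake on mTOR, did not reach 20 CPM in any library or population. At 2-fold rules they cannot be read here; Ddit4 was highest in naive MHTO5, AT3 MHTO8 and AT3-gcsf MHTO5, at 16.8, 16.8 and 19.4 CPM.

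The higher glycolytic sum, of which Gapdh was the largest single part, was seen in the median cell as well. With every cell thinned to 1500 UMIs, the median cell held 8, 8 and 8 glycolytic UMIs in the naive populations, 11, 9 and 10 in the AT3 populations and 13, 14 and 12 in the AT3-gcsf populations. The lower quartile of AT3-gcsf populations was 9 to 11 and the upper quartile of naive ones 10 to 11. Hypoxia genes gave a median of 1 UMI in all 9 populations, and means of 0.801 to 1.58, too few to tell cells apart. Thinning left out 238, 72 and 103 naive, 4, 42 and 35 AT3 and 37, 48 and 21 AT3-gcsf cells that were shallower, and the unthinned sums are the CPM given above.

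Other genes of these pathways differed in direction too. Of 22 further HIF pathway genes, 7, 8 and 7 were measured in AT3 against naive, AT3-gcsf against naive and AT3-gcsf against AT3, with medians of -0.090, 0.41 and 0.42. Hilpda, a lipid droplet protein, was at 5.71, 1.88 and 144 CPM in the naive populations, 4.71, 223 and 10.5 in the AT3 populations and 10.0, 11.9 and 443 in AT3-gcsf populations, and so was high in the 3 populations high in Slc16a3. Vegfa, the vascular growth factor, was highest in the same ones, at 199, 37.6 and 18.3 CPM, but in the opposite order of libraries to Hilpda. Of 9 glycogen genes, 7, 7 and 5 were measured. Glycogenin (Gyg), which primes glycogen, was at 23.9 to 113, 151 to 229 and 285 to 389 CPM without overlap, with log2 ratios of 1.34 and 2.15 for AT3 and AT3-gcsf against naive. The glycogen list as a whole had medians of -0.23, -0.50 and -0.21. Of 21 other glycolysis and pyruvate genes 5 were measured in each comparison, with medians of -0.24, 0.39 and 0.22. The pentose phosphate list, the branch that makes NADPH, had medians of -0.32, -0.27 and -0.082, close to those of all genes, with 0 of its measured members 2-fold higher or lower in any comparison.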

How the data were processed

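Per the file headers and values, the deposited matrices gave unnormalised UMI counts for each gene and called barcode, and the hashtag files unnormalised counts for each tag. The authors used bcl2fastq 2.20.0.422 and Cell Ranger 4.0.0 with mm10, per the submitters' processing notes. A cell took the tag with at least 80% of its named hashtag counts and at least 20 counts, in the hashtag file that labelled 94.1% to 97.4% of its library's barcodes (other files at most 0.672%). Mixed tags were so removed; doublets within a tag were not called. Cells needed 200 genes, under 10% mitochondrial counts and at least 5% of counts from 18 neutrophil markers. The marker minimum alone removed 373, 196 and 212 naive, AT3 and AT3-gcsf cells, which held 10.3%, 4.01% and 1.69% of the counts. From naive MHTO5 it removed 7.55% of the cells and 21.4% of the counts, and from every other population at most 8.15% of the counts. Counts were summed per library and tag and scaled to CPM. Genes at 20 CPM in the higher sum were compared with 5 CPM added, which understates ratios of low genes. TMM factors came from edgeR 4.0.16 (R 4.3.3; numpy 2.4.6, scipy 1.17.1, pandas 2.3.3). The ratio calculation was run on simulated counts with planted changes larger than 2-fold. These held counting error only, so changes in low genes and differences between populations or mice were not covered. Promoters were read from RefSeq and gene positions from GENCODE vM21, both GRCm38. Described in full are members 2-fold different between libraries or in a population against both others and the 3 with most counts per list; from other lists of the pathways, at most 2 genes per comparison. The members and lists were chosen with earlier results of these data known.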

Additional observations from a re-analysis of the deposited data

How the results depend on the processing

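No paired analysis was possible because the tags of one library are tied to those of another by no label. Median log2 ratios below are for AT3 against naive, AT3-gcsf against naive and AT3-gcsf against AT3 in that order. The cause of each shift was not tested. Glycolytic medians were 0.56, 0.96 and 0.34 with TMM, 0.27, 0.56 and 0.23 with totals without the 20 most abundant genes, 0.13, 0.47 and 0.29 without a neutrophil marker minimum, and 0.14, 0.49 and 0.28 with equal weight of populations. For AT3-gcsf against naive the glycolytic median was 0.44 with 1 CPM added and 0.43 without the 5% of cells with most UMIs. Leaving out 1 population at a time, it ranged over 0.085 to 0.34, 0.33 to 0.66 and 0.16 to 0.36, always above 0. Hypoxia medians were 0.48 and 1.18 against naive with TMM, 0.21 and 0.77 without the 20 genes, -0.042 and 0.55 without the marker minimum, and -0.18 and 0.45 with equal weights. With a marker minimum of 10% the hypoxia median of AT3 against naive was -0.13. Leaving out 1 population gave -0.30 to 0.30, 0.35 to 0.91 and 0.24 to 0.51. The AT3 against naive value was -0.065 without naive MHTO3, -0.26 without naive MHTO4, -0.27 without AT3 MHTO8 and -0.30 without AT3 MHTO10, so its sign depended on single populations. Both lists' medians stayed above that of all genes under each alternative, by at least 0.082. Under TMM, 5 and 9 glycolytic and 2 and 6 hypoxia members were at least 2-fold higher against naive (all genes 4.66% and 12.9%), and 7 and 9 glycolytic members were higher in every population, where 16.3% and 32.8% of all genes were; without the 20 genes 2 and 7 were, and 5.49% and 15.2% of all genes. A tag share of 90% for the medians and these scalings of the populations were chosen after seeing the data. No ratio between libraries that was at least 2-fold took the other sign under the alternatives run. Members under 20 CPM are limited by depth, and cells that differ in total transcripts cannot be compared per cell by CPM.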
